A study of Mus musculus with 6 samples.

Results

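The genes described are the secreted and membrane-bound proteases that cut the extracellular matrix, the plasminogen activators with their receptor, and the inhibitors that hold them in check. They were taken by symbol, as all matrix metalloproteases (Mmp), tissue inhibitors of metalloproteases (Timp), ADAMTS proteases and ADAMTS-like proteins, with Plau, Plat and Plaur. The choice was made with earlier results of these data known. Of 55291 gene symbols counted, 54 belong here: 23 Mmp, 4 Timp, 19 Adamts, 5 Adamtsl and 3 genes of the plasminogen activator system. All 54 have a gene model in GENCODE M21 (build GRCm38, the same as mm10).

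RNA was sequenced from 6 libraries of cells sorted from mammary glands of 6-week-old pubertal mice, each made, per the labels, from 5 pooled mice, whereas the paper's methods give another number. All mice carried the Adgra3-lz/+ genotype, in which 1 copy of the Gpr125 gene drives a β-galactosidase fusion, so the controls carry the allele as well. Cells with high surface CD49f were sorted after exclusion of CD31, CD45 and Ter119 positive cells. They were split by β-galactosidase activity, read with the fluorogenic substrate FDG, into TEB-distal Gpr125+ cells (2 libraries, from the region distal to the lymph node, which holds the terminal end buds or TEBs), nipple-proximal Gpr125+ cells (2 libraries) and Gpr125-negative cells (2 libraries, region not given by the labels). The labels give no treatment, and the tissue was digested with collagenase and hyaluronidase before sorting in every group.

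Total counts were between 20134890 and 37296640 per library, and a floor of 3 counts stood at 0.0804 to 0.149 CPM, counts normalized for library depth. That floor allows for counting error alone. Counts of Adgra3 itself were 1658 and 550 where the label says Gpr125-negative, 385 and 142 for TEB-distal and 391 and 262 for nipple-proximal cells, so the mean was not lower in the libraries labelled negative, and neither difference passed (edgeR's quasi-likelihood test, adjusted p = 0.982 and 1). The sort read the fusion protein's enzyme activity, not the transcript. All 10 basal markers were counted in every library, and their summed level was 3383 to 3532 CPM in Gpr125-negative, 3858 to 22186 in TEB-distal and 9324 to 14721 in nipple-proximal cells. Luminal markers summed to 1426 to 2912 CPM over the 6 libraries, leukocyte markers to 94.7 to 316, fibroblast markers to 63.5 to 243, pericyte markers to 10.6 to 60.1, and proliferation genes to 93.4 to 355. Of 8 neutrophil markers, 3 to 5 were at 0 in each library. Endothelial markers summed to 1351 and 847 CPM for Gpr125-negative libraries, 17.2 and 20.5 for TEB-distal libraries, and 224 and 24.4 for nipple-proximal libraries, although CD31 positive cells had been gated out.

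Matrix proteases open the basement membrane and the collagen network around a growing duct. Metalloproteases are made as inactive precursors, are activated by other proteases, and are held by the TIMPs, which bind the active enzymes. Stromelysins such as MMP3 cut basement membrane proteins and activate other metalloproteases, gelatinases cut type IV collagen, and membrane-type metalloproteases act at the cell surface. ADAMTS proteases cleave proteoglycans such as versican and process procollagen, and the plasminogen activators PLAU and PLAT produce plasmin, with PLAUR as the surface receptor of PLAU. In the pubertal mammary gland, metalloproteases take part in duct elongation and side branching, and Mmp2, Mmp3 and Mmp14 are the members best known there.

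Plaur had the highest mean level of the family in all 3 groups. To compare levels between genes, CPM after edgeR's TMM normalization was divided by the length of each gene's merged exons (CPM per kb). On that scale the mean over all 6 libraries was 215 for Plaur, 72.0 for Mmp3, 28.1 for Plat, 26.0 for Mmp14, 22.0 for Timp2 and 19.5 for Adamts1. The order below Plaur differed between the groups. Mmp3 (91.6) and Plat (63.8) came next in Gpr125-negative cells, Mmp3 (98.5) and Timp2 (34.6) in TEB-distal cells, and Mmp14 (31.3) and Mmp3 (25.9) in nipple-proximal cells, where Plat was at 11.7, beside 8.72 in TEB-distal cells. The 6 genes with the highest mean over all libraries held 79.3% to 93.0% of the summed level of all 54 genes in each library, and Plaur alone held 20.4% to 62.8%. The metalloproteases together were at 67.7 to 164 CPM per kb, and the TIMPs together at 14.2 to 62.0.

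Only 36 of the 54 genes passed the filter on low counts. These were 5 of 5 ADAMTS-like genes, 3 of 3 of the plasminogen system, 7 of 7 proteoglycan-cleaving ADAMTS genes, 3 of 3 procollagen N-proteinases, 4 of 9 other ADAMTS genes, 3 of 4 TIMPs, 3 of 4 stromelysins with matrilysin, 1 of 2 gelatinases, 1 of 4 collagenases, 4 of 6 membrane-type and 2 of 7 other metalloproteases. Mmp1a, Mmp1b, Mmp7, Mmp20 and Adamts19 gave 0 counts in all 6 libraries, which allows up to 3 counts in each. Mmp9, a gelatinase abundant in neutrophils, gave 0 and 1 counts for Gpr125-negative, 0 and 4 for TEB-distal and 67 and 8 for nipple-proximal libraries. Timp4, a TIMP of heart and fat, gave 6 counts in 1 nipple-proximal library and 0 elsewhere. The number of members at 0 counts was 21 and 24 for Gpr125-negative, 18 and 18 for TEB-distal and 12 and 10 for nipple-proximal libraries.

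**Figure D1:**
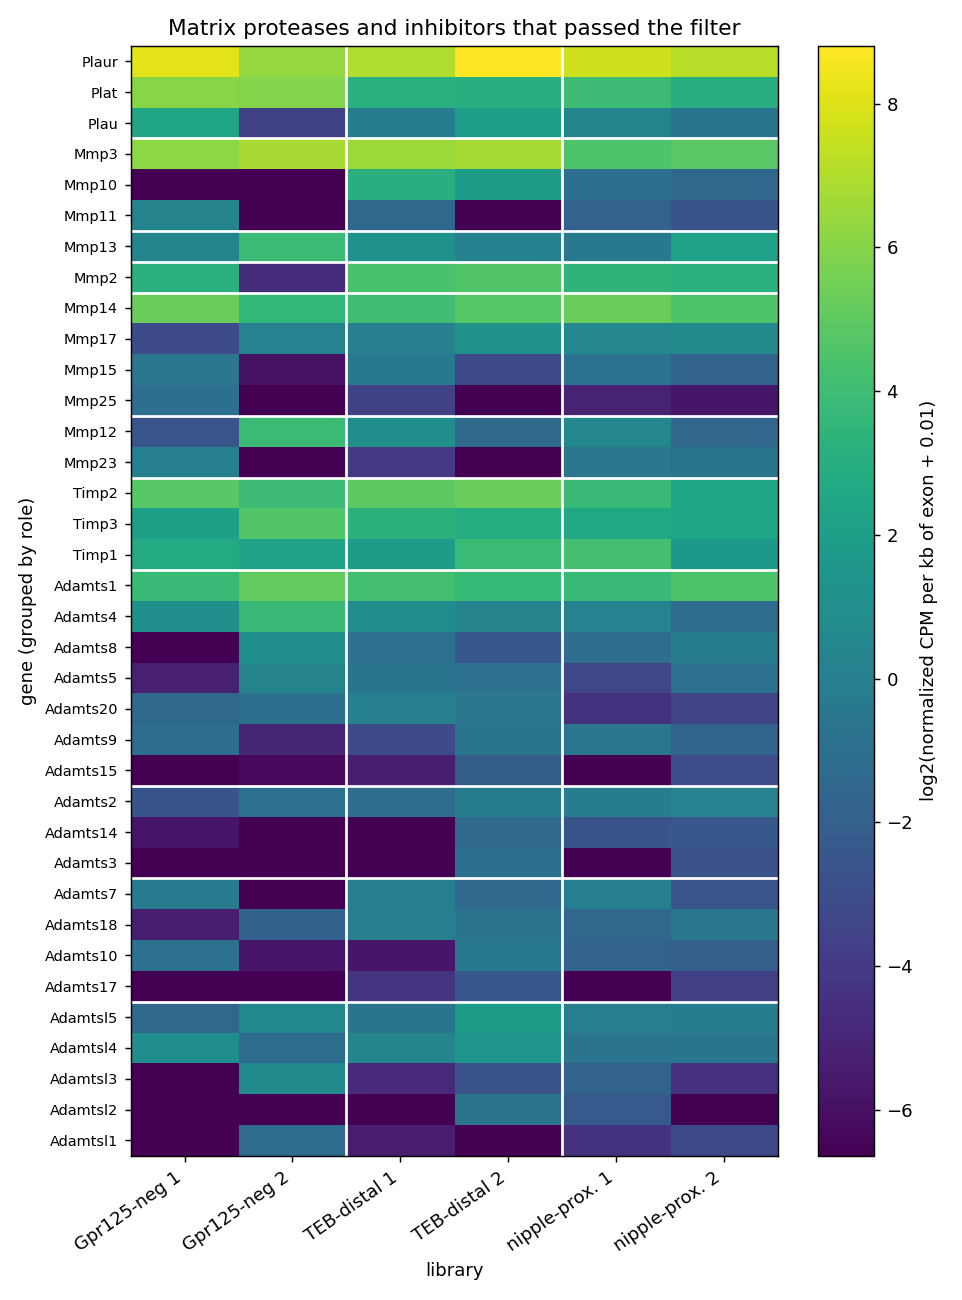
Level of the 36 members that passed the filter (rows, grouped by role) in each of the 6 libraries (columns), as log2 of normalized CPM per kb of exon plus 0.01. Plaur and Mmp3 are the brightest rows, Plat is brightest in the Gpr125-negative libraries, and several rows differ between the 2 Gpr125-negative libraries.

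Replicates of Gpr125-negative cells were far apart for these genes. The 2 Gpr125-negative libraries differed by at least 4-fold (on CPM plus 0.5) for 19 of the 36 tested members, or 52.8%, against 31.0% of all 17268 genes tested. For TEB-distal libraries it was 9 of 36, or 25%, against 18.9%, and for nipple-proximal libraries 5 of 36, or 13.9%, against 2.63%. Mmp2 gave 1459 counts in one Gpr125-negative library and 3 in the other, Plau 614 and 5, and Mmp12, the macrophage elastase, 54 and 3106. No pair of libraries held the same counts.

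The 3 groups were compared pairwise in edgeR (quasi-likelihood, 1 model of the 6 libraries), and calls needed an adjusted p (Benjamini-Hochberg, over all genes tested) under 0.1 with at least a 2-fold difference. No member was called in any comparison, and the same test called 0% of all 17268 genes in each of the 3. Replicates spread widely, with a biological coefficient of variation of 0.967. A group of 2 against 2 cannot give an exact permutation p below 0.333. A second description was used, which asks that both libraries of one group lie above both of the other with a fold of at least 2. The comparisons with Gpr125-negative cells share the same 2 control libraries, so their values are given side by side only. In sorted cell pools fewer cells of a type and less RNA per cell cannot be told apart.

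TEB-distal cells were first compared with Gpr125-negative cells, whose region is not given. Gpr125 status, gland region and the mix of cells therefore cannot be told apart in this comparison. Mmp10, Mmp2, Adamts15, Adamts17, Adamts18 and Adamts20 were higher in both TEB-distal libraries and Plat and Adamts4 were lower. These were 6 of 36 members higher, or 16.7%, against 11.6% of all genes, and 2 of 36 lower, or 5.56%, against 7.35% of all genes. An unadjusted edgeR p under 0.05 was reached by 3 of 36 (Adamts17, Mmp10 and Plat), or 8.33%, against 6.05% of all genes. DESeq2 on the 4 compared libraries called 1 of the 34 members it gave an adjusted p, Mmp10, against 4.33% of genes. The median log2 fold change of the 36 members was 0.56, with 21 above 0, and that of all genes was 0.03.

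Nipple-proximal cells were compared with the same Gpr125-negative libraries, and the same limit holds. Here Mmp10, Adamts14, Adamts18, Adamts2 and Mmp17 were higher in both nipple-proximal libraries, and Plat, Adamts4, Adamts20, Mmp3 and Timp2 were lower. That made 5 of 36 higher, or 13.9%, against 13.8% of all genes, and 5 of 36 lower, or 13.9%, against 6.93% of all genes. Unadjusted edgeR p was under 0.05 for 4 of 36 (Adamts4, Mmp10, Mmp3 and Plat), or 11.1%, against 3.55% of all genes. DESeq2 on the 4 compared libraries called 0 of 33 members and 2.00% of all genes. The members' median log2 fold change was -0.06, with 16 of 36 above 0, beside -0.00 for all genes.

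TEB-distal against nipple-proximal cells compared the 2 Gpr125+ populations directly. Mmp3, Mmp10, Mmp2, Timp2, Adamts20 and Adamtsl4 were higher in both TEB-distal libraries, and Mmp23 and Adamtsl1 were higher in both nipple-proximal libraries. These 6 of 36 (16.7%) stand against 10.5% of all genes, and the 2 of 36 lower (5.56%) against 10.4%. Unadjusted edgeR p was under 0.05 for Adamts20, Mmp3 and Timp2, 3 of 36 or 8.33%, against 2.21% of all genes. DESeq2 on the 4 compared libraries called 3 of 35 members (Adamts20, Mmp10 and Mmp3), or 8.57%, against 2.26% of all genes. The members' median log2 fold change was 0.54, with 23 of 36 above 0, and that of all genes was 0.06.

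**Figure D2:**
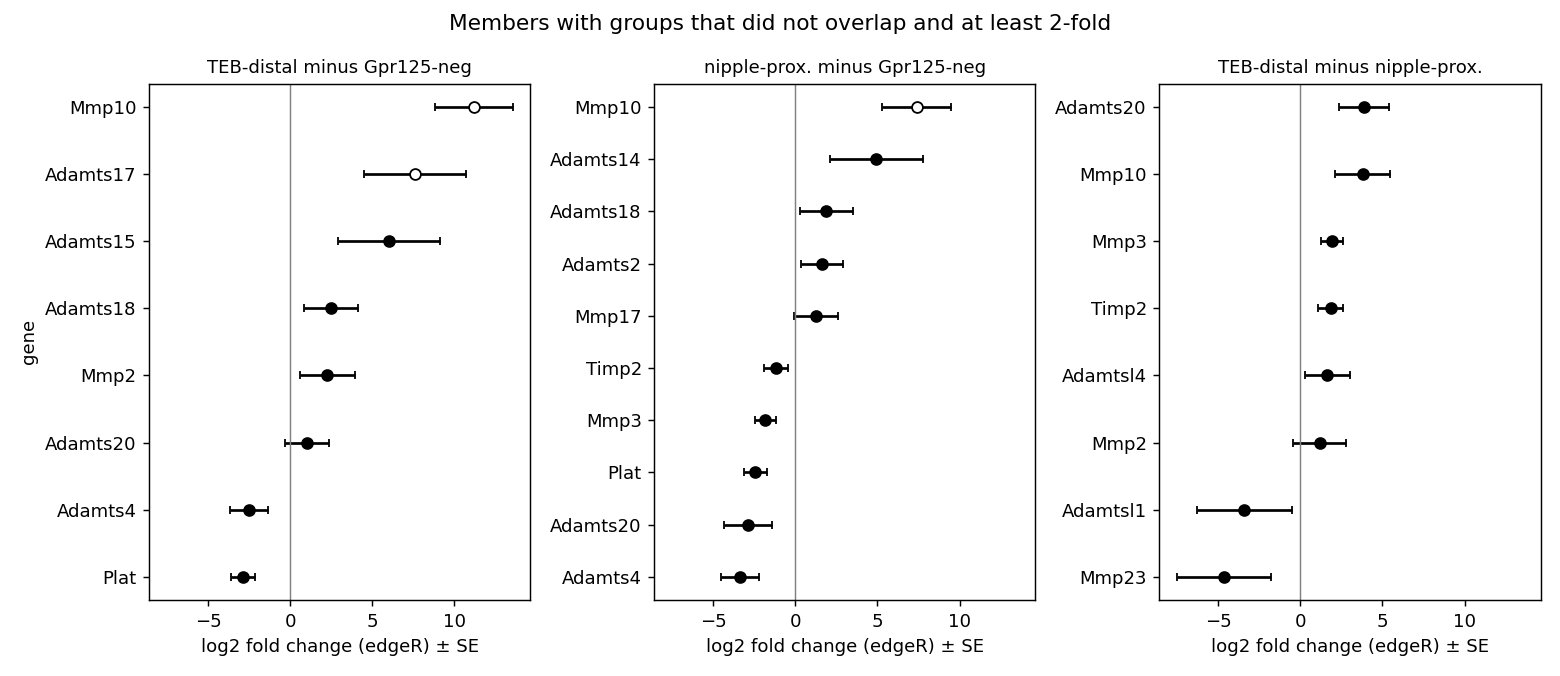
Log2 fold change from edgeR (x axis) with its SE (bars) for each member (y axis) whose libraries did not overlap between the groups and differed by at least 2-fold, in the 3 comparisons. Open circles mark members with 0 counts in both libraries of one group, whose fitted value depends on the prior count; Mmp10 stands furthest to the right in both comparisons with Gpr125-negative cells, and Plat and Adamts4 stand to the left in both.

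The stromelysins Mmp3 and Mmp10 were both higher in TEB-distal than in nipple-proximal libraries. Mmp3, Mmp10 and Mmp13 lie with 7 other metalloprotease genes in a cluster on chromosome 9 from position 7272514 to 7699585 (GRCm38), a span of 427.1 kb that holds 10 of the 23 Mmp genes. Mmp3 is at chr9:7445822-7455975 and Mmp10 at chr9:7502352-7510240, both on the plus strand. Of the 10 cluster genes 4 passed the filter (Mmp13, Mmp12, Mmp3 and Mmp10), 4 were at 0 counts in every library and Mmp8 and Mmp27 gave 40 and 10 counts in all. RefSeq promoter windows on GRCm38.p6 were held for 37 of the 54 members, as 40 windows of 250 bases before the annotated start. The AP-1 motif TGANTCA, which reads the same on both strands, was found in 9 of these 40 windows, or 22.5%, against 6.75% of 32851 windows of all genes. It was present in the windows of 8 of the 10 cluster genes, 4 of them at 0 counts in every library, and in 1 of 28 windows outside the cluster, that of Plaur. The TATA motif TATAAA, searched on both strands, was in 10 of 40 windows, or 25%, against 12.4% of all windows.

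To show these letters in detected genes and in a neighbour with no counts, the 150 bases before the start of Mmp3, Mmp10 and Mmp13, in whose windows both motifs were found, of Mmp1a and of Plaur are given 5′ to 3′ on the gene's strand, from RefSeq on GRCm38.p6. Capitals mark TGANTCA and TATAAA. Mmp12, the other cluster gene that passed the filter, had TGANTCA in 1 of its 2 windows and TATAAA in neither.
Mmp3, chr9:7445672-7445821: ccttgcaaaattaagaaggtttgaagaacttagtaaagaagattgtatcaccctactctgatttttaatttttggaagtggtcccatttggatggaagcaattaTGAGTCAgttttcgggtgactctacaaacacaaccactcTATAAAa
Mmp10, chr9:7502192-7502341: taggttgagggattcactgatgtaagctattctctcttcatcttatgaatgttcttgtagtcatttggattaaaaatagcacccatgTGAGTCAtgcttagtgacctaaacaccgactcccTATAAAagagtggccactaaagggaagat
Mmp13, chr9:7272364-7272513: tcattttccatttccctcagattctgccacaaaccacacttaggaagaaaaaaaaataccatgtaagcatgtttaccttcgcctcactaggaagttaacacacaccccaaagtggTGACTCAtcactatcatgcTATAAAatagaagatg
Mmp1a, chr9:7463991-7464140: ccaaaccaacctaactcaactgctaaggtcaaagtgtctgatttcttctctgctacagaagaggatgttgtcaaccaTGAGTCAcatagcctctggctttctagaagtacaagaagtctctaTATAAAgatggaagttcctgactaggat
Plaur, chr7:24462333-24462482: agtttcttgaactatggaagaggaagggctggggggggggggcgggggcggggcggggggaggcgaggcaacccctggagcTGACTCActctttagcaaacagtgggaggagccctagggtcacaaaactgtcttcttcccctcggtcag
The AP-1 match began 46 bases before the start of Mmp3, 63 before that of Mmp10, 35 before that of Mmp13, 73 before that of Mmp1a and 69 before that of Plaur. Mmp3 and Mmp1a thus held the same pair of motifs while Mmp3 gave 23695 counts over the 6 libraries and Mmp1a 0. A match is a description of letters and not a bound site.

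Mmp3, stromelysin 1, was at 130 and 200 normalized CPM in the Gpr125-negative, 165 and 190 for TEB-distal, and 42.1 and 51.2 for nipple-proximal libraries. The nipple-proximal libraries were lowest and did not overlap either other group, while TEB-distal and Gpr125-negative cells overlapped. Against TEB-distal cells Mmp3 was 3.80-fold lower in nipple-proximal cells (log2 1.93, SE 0.65), and edgeR's adjusted p was 1, with 0.0755 by DESeq2 on those 4 libraries and 0.314 by DESeq2 on all 6. Against Gpr125-negative cells it was 3.54-fold lower (log2 -1.82, SE 0.65, edgeR adjusted p = 1). TEB-distal and Gpr125-negative cells were at 177 ± 17.9 and 165 ± 50.0 CPM (SD, n = 2), a log2 difference of 0.10 with an SE of 0.63.

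Mmp10, stromelysin 2, gave 0 and 0 counts for Gpr125-negative libraries, 361 and 183 for TEB-distal libraries and 17 and 13 for nipple-proximal libraries. The 3 groups did not overlap. Set against 3 counts per Gpr125-negative library, Mmp10 was at least 122-fold higher in TEB-distal and at least 8.71-fold higher in nipple-proximal cells. edgeR's adjusted p was 0.803 and 1, while DESeq2 on all 6 libraries gave adjusted p of 1.84e-06 and 0.0234. Between the Gpr125+ populations the level was 14.0-fold higher in TEB-distal cells (log2 3.80, SE 1.67, edgeR adjusted p = 1, DESeq2 on 4 libraries 0.0104 and on all 6 0.105). Mmp11, stromelysin 3, was uneven, at 0 counts in 1 Gpr125-negative and 1 TEB-distal library, and Mmp7, matrilysin, stayed at 0 counts.

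**Figure D3:**
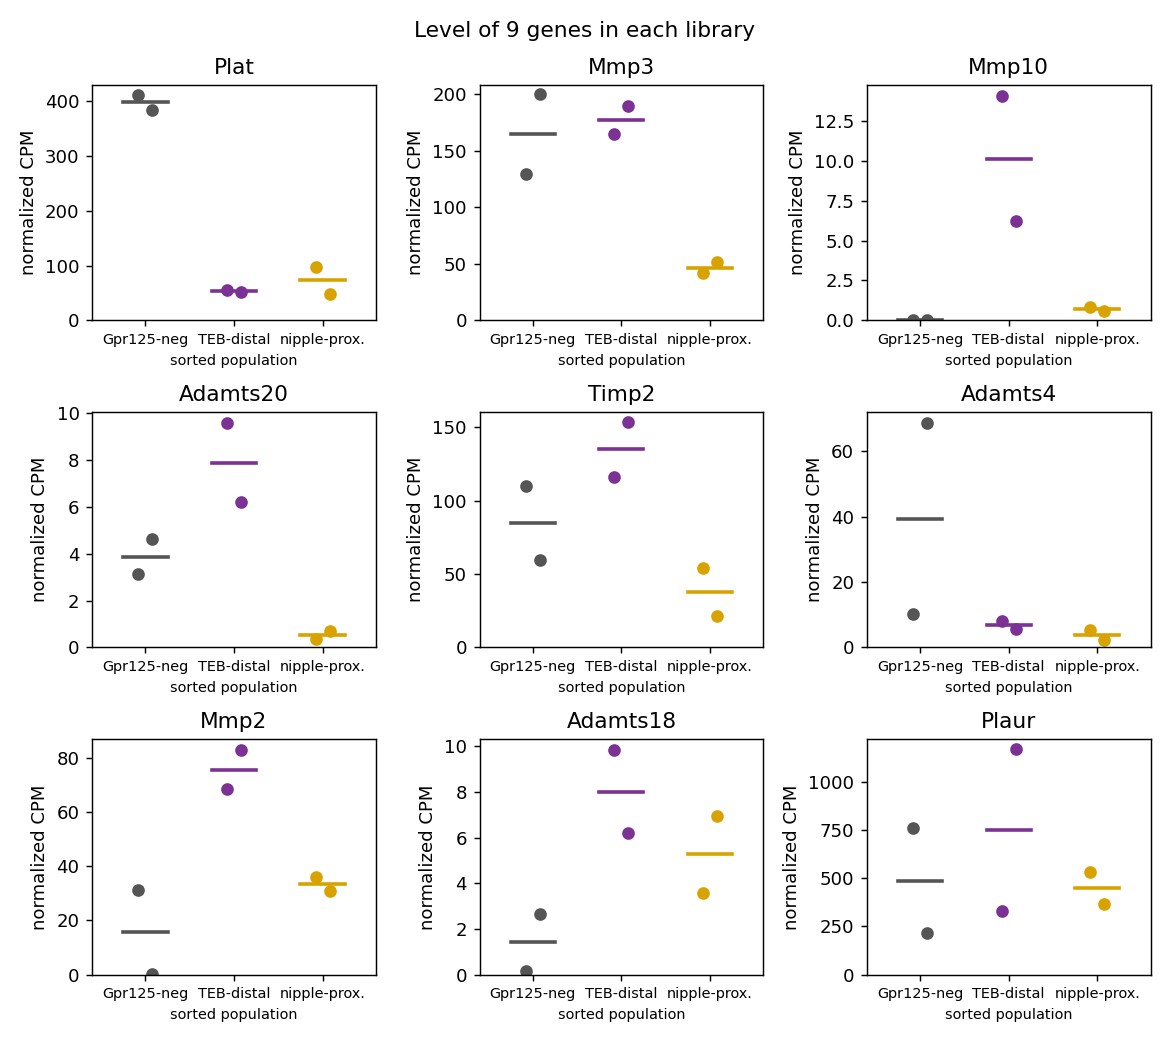
Normalized CPM (y axes, from 0) of 9 members in the 3 sorted populations (x axis); points are libraries and bars are means of 2. Mmp3, Adamts20 and Timp2 are lowest in both nipple-proximal libraries, Mmp10 is highest in both TEB-distal libraries, Plat is highest in both Gpr125-negative libraries, and the 2 Gpr125-negative libraries are far apart for Adamts4 and Mmp2.

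Fibroblasts are a known source of Mmp2, Mmp3 and Timp2. Summed over 10 fibroblast markers, the level was 121 and 190 CPM for TEB-distal, 116 and 63.5 for nipple-proximal and 96.4 and 243 for Gpr125-negative libraries, and Fap was at 0 in all 6. The study's antibody list also holds CD140a (Pdgfra), a fibroblast surface marker, while the series' account of the gate names CD31, CD45 and Ter119. Pdgfra gave 173 and 121 counts for TEB-distal, 1 and 17 for nipple-proximal and 123 and 1 for Gpr125-negative libraries. Between the Gpr125+ populations 6 of the 10 were higher in both TEB-distal libraries and 0 lower in both. Their part in the values of Mmp2, Mmp3 and Timp2 was not tested.

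Mmp2, gelatinase A (chr8:92827291-92853420), was at 68.5 and 82.8 CPM for TEB-distal, 36.2 and 30.9 for nipple-proximal and 31.4 and 0.102 for Gpr125-negative libraries. Both TEB-distal libraries were above all others. The fitted log2 difference was 1.17 (SE 1.62) from nipple-proximal and 2.26 (SE 1.67) from Gpr125-negative cells, each with an edgeR adjusted p of 1. The latter depends on which Gpr125-negative library is kept. It was 9.36 without Gpr125-negative replicate 1 and 1.27 without replicate 2.

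Collagenases were represented by Mmp13, which cuts fibrillar collagen. It gave 160 and 1178 counts for Gpr125-negative, 164 and 86 for TEB-distal and 40 and 255 for nipple-proximal libraries. All 3 groups overlapped. Mmp12 behaved alike in the second Gpr125-negative library, with 105 CPM beside 1.16 to 14.9 in the other 5, and its 3′ end overlaps exons of Mmp1b on the other strand, which cannot be told apart in counts made without strand. Leukocyte markers, which include those of macrophages, summed to 94.7 and 134 CPM for Gpr125-negative cells, below the 148 to 316 of the other 4 libraries, but Cd68 carried much of that sum. Over the 9 markers without Cd68 (left out after its values were seen) the second Gpr125-negative library was highest, at 90.4 CPM beside 23.6 to 66.7 elsewhere. Csf1r, a receptor of macrophages, was at 17.1 CPM in that library beside 0.885 to 5.01 in the other 5. Fcer1g, Lyz2 and Laptm5 were highest there as well, at 14.9, 10.4 and 2.88 CPM. Ptprc, Cd52, Tyrobp and Cd74 were not, and Cd68 was lowest there, at 43.3 CPM beside 71.1 to 290 elsewhere. Adgre1, another macrophage marker, gave 8 counts there beside 4 to 20. Their part in the Mmp12 and Mmp13 values was not tested.

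Mmp14, the membrane-type metalloprotease that activates MMP2 at the cell surface (chr14:54431612-54445364), was at 228 and 72.2 CPM for Gpr125-negative, 99.7 and 156 for TEB-distal and 242 and 132 for nipple-proximal libraries. The groups overlapped, and the log2 differences were between -0.55 and 0.31 with SEs of 0.78. Mmp17, another membrane-type member anchored by a lipid, was at 9.33 and 10.1 CPM for nipple-proximal against 0.710 and 7.55 for Gpr125-negative libraries (log2 1.24, SE 1.34, edgeR adjusted p = 1), and at 6.82 and 15.4 for TEB-distal libraries. It lost the 2-fold size, at 0.22, without Gpr125-negative replicate 1. Mmp23 gave 33 and 31 counts for nipple-proximal, 3 and 0 for TEB-distal and 111 and 0 for Gpr125-negative libraries. For the Gpr125+ pair the count ratio was 28.2 in favour of nipple-proximal cells, with an exact 95% counting interval of 9.23 to 140. Such an interval takes amplified reads as independent and leaves out the spread between libraries. edgeR's log2 difference, TEB-distal minus nipple-proximal, was -4.64 with an SE of 2.88, and its adjusted p was 1.

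Among the inhibitors, Timp2 had the highest mean per kb over all 6 libraries. In nipple-proximal cells the mean of Timp1 was above it (10.8 beside 9.66 CPM per kb), but only 1 library had this order. Timp1 and Timp2 were at 18.6 and 13.8 in replicate 1, and at 3.02 and 5.49 in replicate 2. Timp3 was above Timp2 in 1 Gpr125-negative library (24.1 beside 15.3) and narrowly in nipple-proximal replicate 2 (5.69 beside 5.49). TIMP2 inhibits metalloproteases and also bridges MMP14 to the MMP2 precursor. Timp2 (chr11:118301069-118355740) was at 110 and 59.5 CPM for Gpr125-negative, 116 and 154 for TEB-distal and 53.9 and 21.4 for nipple-proximal libraries. The nipple-proximal libraries lay below the others and the remaining groups stood next to each other without overlap (110 beside 116). Timp2 was 3.59-fold higher in TEB-distal than in nipple-proximal cells (log2 1.84, SE 0.74, edgeR adjusted p = 1, DESeq2 on 4 libraries 0.216), and in nipple-proximal cells it was 2.25-fold lower than in Gpr125-negative cells (log2 -1.17, SE 0.73, edgeR adjusted p = 1). Without nipple-proximal replicate 2 the latter was -0.65 on log2. Timp3, the matrix-bound inhibitor, was at 33.6 and 197 CPM for Gpr125-negative libraries and between 46.4 and 78.8 in the others, and its exons overlap those of Syn3. Timp1 ranged from 2.68 to 16.6 CPM with all groups overlapping.

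Per kb, the ratio of Mmp14 to Timp2 was 0.561 and 0.662 for TEB-distal, 1.36 and 0.794 for Gpr125-negative and 2.93 and 4.03 for nipple-proximal libraries. The 3 groups did not overlap, and since the pair was picked after its values were seen the ratio is given with no test. All metalloproteases over all TIMPs, on the same scale, was 3.17 and 3.49 for Gpr125-negative, 3.32 and 2.65 for TEB-distal and 2.13 and 4.75 for nipple-proximal libraries, and these overlapped.

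Plat, tissue plasminogen activator (chr8:22757727-22782844), separated the Gpr125-negative libraries from the rest. It was at 412 and 385 CPM there, at 56.2 and 52.6 for TEB-distal and at 97.3 and 48.9 for nipple-proximal libraries. Both Gpr125-negative libraries were higher than all 4 others, and the Gpr125+ groups overlapped. The Gpr125-negative level of 398 ± 18.9 CPM (SD, n = 2) was 7.33-fold that of TEB-distal cells (log2 -2.87, SE 0.71) and 5.45-fold that of nipple-proximal cells (log2 -2.45, SE 0.70). edgeR's adjusted p was 0.803 and 1, DESeq2 on all 6 libraries gave 0.00913 and 0.0616, and DESeq2 on the 4 compared libraries 0.126 and 0.177. With any single library left out, the log2 difference stayed between -2.95 and -2.83 for TEB-distal and between -3.03 and -2.03 for nipple-proximal cells.

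Endothelial cells are a textbook source of Plat. Of 10 endothelial markers, 9 were lower in each TEB-distal library than in each Gpr125-negative one, and 7 of 10 were so in nipple-proximal libraries. Robo4 was at 0 in both TEB-distal libraries and Tek at 0 in 1 nipple-proximal library, with no marker at 0 for Gpr125-negative libraries. Among the Gpr125+ libraries the one with the highest endothelial sum, 224 CPM, also had the highest Plat. In the remaining Gpr125+ libraries the order was reversed. Endothelial sums of 17.2 and 20.5 CPM (TEB-distal) and 24.4 CPM (nipple-proximal) stood beside Plat of 56.2, 52.6 and 48.9 CPM. The part of endothelial RNA in the Plat difference was not tested.

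**Figure D4:**
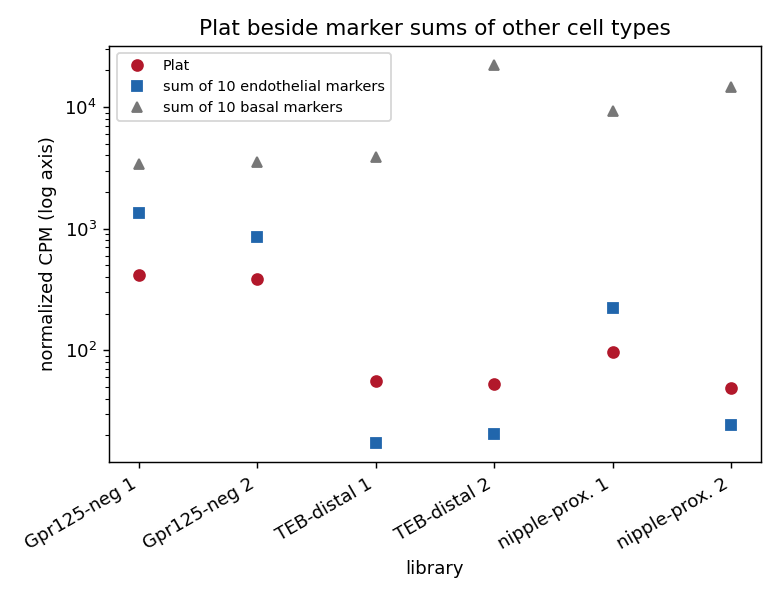
Normalized CPM (log y axis) of Plat (circles), of the sum of 10 endothelial markers (squares) and of the sum of 10 basal markers (triangles) in each of the 6 libraries (x axis). Plat and the endothelial sum are both highest in the 2 Gpr125-negative libraries, and the basal sum is not.

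Plaur, the urokinase receptor (chr7:24462484-24475968), was the highest member in each library except Gpr125-negative replicate 2, where Mmp3 was higher per kb (111 beside 81.6). Its level was 759 and 213 CPM for Gpr125-negative, 331 and 1171 for TEB-distal and 531 and 366 for nipple-proximal libraries. All groups overlapped, with log2 differences of -0.12 to 0.74 and SEs of 0.93. Its ligand Plau, urokinase, was at 0.169 to 13.2 CPM, so that per kb the receptor stood 52.0-fold to 1140-fold above it. Plau overlapped between all groups.

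The proteoglycan-cleaving ADAMTS genes were led by Adamts1, at 68.0 to 183 CPM with the groups overlapping. Adamts20 (chr15:94270163-94465418), a versican-cleaving member known from pigment cell development, gave 145 and 137 counts for Gpr125-negative, 246 and 182 for TEB-distal and 7 and 15 for nipple-proximal libraries. As normalized CPM it was 3.12 and 4.64, 9.59 and 6.20, and 0.344 and 0.706, and the 3 groups did not overlap. TEB-distal cells were 14.9-fold above nipple-proximal cells (log2 3.90, SE 1.53); edgeR's adjusted p was 1, and DESeq2's was 0.0138 on the 4 libraries and 0.0163 on all 6. TEB-distal cells were 2.03-fold above Gpr125-negative cells (log2 1.02, SE 1.36), and nipple-proximal cells 7.33-fold below them (log2 -2.87, SE 1.46), each with an edgeR adjusted p of 1. The first of these was 0.64 on log2 without Gpr125-negative replicate 1.

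Adamts4, aggrecanase 1 (chr1:171250421-171260637), was at 10.1 and 68.7 CPM for Gpr125-negative, 8.23 and 5.62 for TEB-distal and 5.45 and 2.17 for nipple-proximal libraries. The Gpr125+ libraries were all lower, but the margin to the first Gpr125-negative library was small. The log2 difference was -2.51 (SE 1.13, edgeR adjusted p = 0.838) for TEB-distal cells, which became -0.54 without Gpr125-negative replicate 2. For nipple-proximal cells it was -3.37 (SE 1.17, edgeR adjusted p = 1, DESeq2 on all 6 libraries 0.0985), and -1.41 without that library.

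Adamts15 gave 4 and 70 counts for TEB-distal and 0 and 1 for Gpr125-negative libraries, and 0 and 25 for nipple-proximal libraries. The count ratio of TEB-distal to Gpr125-negative was 102, with an exact 95% counting interval of 17.8 to 4091. That interval leaves out the spread between libraries, and most of the reads came from a single library (edgeR log2 6.02, SE 3.10, adjusted p = 0.873). Adamts5, Adamts8 and Adamts9 overlapped between groups in every comparison with Gpr125-negative cells.

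Adamts2, the main procollagen I N-proteinase, was at 8.79 and 10.5 CPM for nipple-proximal, 4.13 and 8.78 for TEB-distal and 1.44 and 4.88 for Gpr125-negative libraries. Nipple-proximal libraries were above both other groups, narrowly so for 1 TEB-distal library. Against Gpr125-negative cells the log2 difference was 1.61 (SE 1.27, edgeR adjusted p = 1), and 0.84 without Gpr125-negative replicate 1. Adamts14, which shares this activity, gave 16 and 19 counts for nipple-proximal, 0 and 60 for TEB-distal and 2 and 0 for Gpr125-negative libraries. The count ratio between nipple-proximal and Gpr125-negative cells was 32.0, with an exact 95% counting interval of 8.21 to 274. That interval again leaves out the spread between libraries (edgeR log2 4.94, SE 2.82, adjusted p = 1). Adamts3 was counted only in 1 TEB-distal library (78 counts) and 1 nipple-proximal library (15 counts).

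Adamts18 (chr8:113697126-113848738), a basement membrane protease that mammary myoepithelial cells are known to secrete, was higher in both Gpr125+ populations. It gave 7 and 79 counts for Gpr125-negative, 252 and 182 for TEB-distal and 73 and 148 for nipple-proximal libraries, that is 0.151 and 2.68, 9.83 and 6.20, and 3.59 and 6.97 normalized CPM. All 4 Gpr125+ libraries were above both Gpr125-negative libraries and the Gpr125+ groups overlapped. Against Gpr125-negative cells it was 5.67-fold higher in TEB-distal cells (SE 1.65 on log2) and 3.74-fold higher in nipple-proximal cells (SE 1.62 on log2), each with an edgeR adjusted p of 1. Without Gpr125-negative replicate 1 the log2 differences were 1.45 and 0.83. The basal marker sum, which includes myoepithelial genes, was also higher in all 4 Gpr125+ libraries as CPM. The margin was small for TEB-distal replicate 1, at 3858 beside 3532 CPM in Gpr125-negative replicate 2. Per kb these 2 libraries were at 1889 and 1893. Of the 10 basal markers, 5 were higher in each TEB-distal than in each Gpr125-negative library. Trp63 was lower there, at 7.33 and 6.47 CPM beside 58.1 and 8.40 for Gpr125-negative libraries. For nipple-proximal libraries 8 of the 10 were higher and 0 lower. The part of basal cells in the Adamts18 values was not tested.

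Adamts17 gave 8 and 40 counts for TEB-distal, 0 and 11 for nipple-proximal and 0 and 0 for Gpr125-negative libraries. Set against 3 counts per Gpr125-negative library, it was at least 10.1-fold higher in TEB-distal cells (edgeR adjusted p = 0.818). Among the ADAMTS-like proteins, which lack a protease domain and bind the matrix, Adamtsl4 gave 137 and 325 counts for TEB-distal and 52 and 57 for nipple-proximal libraries (3.13-fold, log2 1.65, SE 1.38, edgeR adjusted p = 1), beside 371 and 53 for Gpr125-negative libraries. Adamtsl1 gave 4 and 0 counts for TEB-distal, 10 and 26 for nipple-proximal and 0 and 157 for Gpr125-negative libraries, and for the Gpr125+ pair edgeR's log2 difference was -3.41 (SE 2.91, adjusted p = 1). Adamtsl5 ranged from 1.64 to 16.6 CPM. Its mean over all libraries was close to that of Adamtsl4 (1.31 and 1.25 CPM per kb), and in Gpr125-negative cells Adamtsl4 was the higher of the pair (1.16 beside 0.923).

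Adamts7, which per kb had the highest mean of the other ADAMTS genes, was at 4.84 and 0 CPM for Gpr125-negative, 6.24 and 2.21 for TEB-distal and 6.34 and 0.989 for nipple-proximal libraries. Its exons overlap those of Tbc1d2b, and its groups overlapped. Adamts10, which acts on fibrillin microfibrils, gave 204 and 2 counts for Gpr125-negative, 2 and 183 for TEB-distal and 49 and 43 for nipple-proximal libraries, so that the replicates of the first pair of groups were far apart. Mmp15, a membrane-type member, ranged from 0.0339 to 3.98 CPM. Mmp25 was counted mostly in Gpr125-negative replicate 1, at 123 counts, and Adamtsl3 mostly in Gpr125-negative replicate 2, at 386 counts. Adamtsl2 gave 142 counts in 1 TEB-distal library, 32 in 1 nipple-proximal library and 0 in the other 4. Besides Mmp9 and Timp4, 11 more members were counted but stayed below the filter (Mmp8, Mmp16, Mmp19, Mmp21, Mmp24, Mmp27, Mmp28, Adamts6, Adamts12, Adamts13 and Adamts16), with at most 28 counts in any library.

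The remaining genes of the pathway were taken from 49 listed activators, inhibitors, other proteases and substrates, all counted, of which 43 were tested. edgeR called 0 of them in each comparison. For TEB-distal against Gpr125-negative cells DESeq2 on the 4 compared libraries called A2m, 1 of 40 or 2.5%, against 4.33% of all genes. Almost all A2m reads came from 1 library (1 and 254 counts for TEB-distal, 0 and 0 for Gpr125-negative libraries). For nipple-proximal against Gpr125-negative cells it called Tll1, 1 of 38 or 2.63%, against 2.00%. For TEB-distal against nipple-proximal cells it called Ctsk and Fbln1, 2 of 42 or 4.76%, against 2.26%. Higher in each TEB-distal than in each Gpr125-negative library by 2-fold were 9 of 43, or 20.9%, against 11.6% of all genes, and lower 1 of 43, or 2.33%, against 7.35%. For nipple-proximal against Gpr125-negative cells it was 8 of 43 higher, or 18.6%, against 13.8%, and 2 of 43 lower, or 4.65%, against 6.93%. For TEB-distal against nipple-proximal cells it was again 8 and 2 of 43, against 10.5% and 10.4%. The medians of their log2 fold changes were 0.32, 0.21 and 0.14.

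Several of these partners act on the proteases above. Serpine2, a serpin that inhibits plasminogen activators and plasmin, gave 3307 and 8472 counts for Gpr125-negative, 2497 and 1980 for TEB-distal and 762 and 329 for nipple-proximal libraries (nipple-proximal against Gpr125-negative, log2 -2.76, SE 0.90, edgeR adjusted p = 1). It was lowest in the nipple-proximal libraries, as were Mmp3, Adamts20 and Timp2. Ctsk, cathepsin K, a collagen-degrading protease, gave 750 and 386 counts for TEB-distal, 39 and 21 for nipple-proximal and 561 and 13 for Gpr125-negative libraries, with a log2 difference of 3.86 (SE 1.64) between the Gpr125+ populations and an edgeR adjusted p of 1 (DESeq2 on the 4 libraries 0.00136, and on all 6 0.264). Reck, a membrane-anchored inhibitor of metalloproteases, gave 35 and 260 counts for TEB-distal and 71 and 257 for nipple-proximal libraries against 32 and 1 for Gpr125-negative libraries (log2 3.79 and 4.40, SE 1.95 and 2.00, edgeR adjusted p = 0.872 and 1). Htra1, a secreted serine protease, gave 842 and 2415, 618 and 328, and 678 and 183 counts for TEB-distal, nipple-proximal and Gpr125-negative libraries, and was 5.53-fold higher in TEB-distal than in Gpr125-negative cells (log2 2.47, SE 0.87, edgeR adjusted p = 0.803).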

How the data were processed

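Reads came from SMART-Seq HT libraries, which amplify full-length cDNA and carry no molecular identifiers. Per the labels' processing notes, CASAVA and STAR 2.7.3 were used on mm10; the paper gives another STAR version and counting with HTSeq. The deposited values are raw read counts per gene symbol, made by the authors without strand and without normalization. Reads of overlapping genes cannot be told apart in such counts. The sources used here do not name the annotation release. Counts of all 6 libraries were fitted in R 4.3.3 with edgeR 4.0.16 (TMM, filterByExpr by group, estimateDisp, robust glmQLFit, glmQLFTest), with p-values adjusted over 17268 genes. DESeq2 1.42.0, the study's tool, was an alternative, as were its size factors, no filter beyond 1 count, edgeR on 4 libraries, the replicate block and leaving out each library. The script was tested on simulated counts, but recovery was required only for large changes at a spread below that of these data. Replicates are labelled as separate samples; whether they share mice is not given, so p-values measure the spread between these libraries. Genes given in full had non-overlapping libraries and a 2-fold difference, or were the highest of their class. The members and lists were chosen with earlier results of these data known.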

Additional observations from a re-analysis of the deposited data

How the results depend on the processing

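edgeR's call of 0 members depended on the tool, the filter and the library set. For TEB-distal against Gpr125-negative cells, DESeq2 on all 6 libraries called 2 members (Mmp10 and Plat), DESeq2 on the 4 compared libraries 1 (Mmp10), edgeR with no filter beyond a single count 1 (Mmp10), and leaving out 1 library 0 to 2 (Mmp10 and Mmp2 without Gpr125-negative replicate 1). For nipple-proximal against Gpr125-negative cells DESeq2 on all 6 libraries called 3 (Adamts4, Mmp10 and Plat) and leaving out 1 library gave 0 to 2 (Adamts4 and Mmp2 without Gpr125-negative replicate 1). For TEB-distal against nipple-proximal cells DESeq2 called 1 on all 6 libraries (Adamts20) and 3 on 4 libraries (Adamts20, Mmp10 and Mmp3), and leaving out 1 library gave 0 to 0. The cause was not tested. In these 3 comparisons DESeq2 on the 4 compared libraries called 4.33%, 2.00% and 2.26% of all genes. For DESeq2 on all 6 libraries, edgeR without the filter and the fits without 1 library, the share of all genes called was not taken. Their counts of members therefore cannot be set against a general rate. With DESeq2 size factors and with edgeR on the 4 compared libraries the count was 0 in all 3 comparisons. With the replicate block, edgeR called 0 members in each comparison; deviations of same-numbered libraries correlated at -0.03, 0.19 and -0.00. None of the 26 named fold changes passed in edgeR, so none could lose a call. They were chosen for libraries that did not overlap. Refitting the same counts or leaving out 1 library could therefore hardly change a sign. Of their 312 values under alternatives 14 passed and 0 changed sign, but 6 of the 26 came under 2-fold when 1 library was left out: Mmp17 (0.22 on log2), Adamts2 (0.84) and Adamts18 (0.83) in nipple-proximal and Adamts20 (0.64) in TEB-distal cells without Gpr125-negative replicate 1, Adamts4 (-0.54) in TEB-distal cells without Gpr125-negative replicate 2, and Timp2 (-0.65) in nipple-proximal cells without nipple-proximal replicate 2, all against Gpr125-negative cells. DESeq2 size factors shifted the median of all genes by -0.15 and 0.13 (log2) in the comparisons with nipple-proximal cells. Genes with few counts in a group, such as Mmp10, Adamts14 and Adamts15, are limited by the floor of 3 counts.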
